A study of Mus musculus with 6 samples.

Results

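The genes described here encode the nuclear part of the mitochondrial respiratory chain and ATP synthase, together with the factors that assemble them. They were found by gene symbol in a table of RPKM values (reads per kilobase of transcript, scaled to library size): symbols that start with Nduf, Uqcr, Atp5, Sdh with a letter from a to d, or Cox with a number, plus Cyc1 and Cycs. The rule found 103 of the 10960 named genes in that table, and a gene with more than 1 transcript was represented by the transcript with the highest mean. By known role, 78 of them are subunits: 36 of complex I, 4 of complex II, 9 of complex III, 14 of complex IV and 15 of ATP synthase. Another 22 are assembly factors, 8 for complex I, 4 for complex II and 10 for complex IV. Cycs encodes cytochrome c, and Atp5s and Atp5sl were kept apart because they are not subunits despite their names.

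Messenger RNA was sequenced from the frozen liver of male C57BL/6J mice, an inbred strain with no genetic change named in the labels, at 8 weeks of age. Refed mice (libraries 5, 7 and 8) had no food for 12 h of the day, starting at 10 am, and were then fed a high sucrose diet (69% sucrose, with fat at 10%) from 10 pm, again for 12 h. Fasted mice (libraries 1, 3 and 4) had no food over the night, for 12 h from 10 pm. Every mouse was killed at 10 am, so both groups had been fasted within the preceding day and were sampled at the same clock time. Whether every library came from its own mouse is not stated in so many words, and the p-values below rest only on the spread between libraries, which may be technical.

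Complex I passes electrons from NADH to ubiquinone, complex II passes them from succinate, complex III hands them on to cytochrome c, and complex IV gives them to oxygen. Complexes I, III and IV pump protons across the inner membrane, and ATP synthase uses their return to make ATP. Each complex except complex II also holds subunits encoded by mitochondrial DNA, which were not analysed here. In liver these complexes reoxidise the NADH and the reduced flavins of fatty acid and sugar breakdown. Most assembly factors are not part of the finished enzymes: they insert haem, copper, flavin and iron-sulfur clusters, modify subunits, or hold intermediates together.

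Promoter sequence is shown for 4 of the genes whose values are given below: the subunit and the assembly factor with the largest increases on the log2(RPKM + 1) scale (Ndufa8 and Ndufaf4), a gene that was lower after refeeding (Atp5sl), and Atp5b, a highly expressed subunit whose values in both groups overlapped. Each is the 250 bases before the annotated start, 5′ to 3′ on the gene's own strand, from RefSeq on GRCm38.p6. Ndufa8 is at chr2:36049339-36049588 on the minus strand. Ndufaf4 is at chr4:24897833-24898082, Atp5sl at chr7:25619164-25619413 and Atp5b at chr10:128083057-128083306, all on the plus strand. Capitals mark a match to the NRF1 motif in Ndufa8 and Ndufaf4 and to an E-box in Atp5sl; Atp5b held none of the motifs searched.
Ndufa8: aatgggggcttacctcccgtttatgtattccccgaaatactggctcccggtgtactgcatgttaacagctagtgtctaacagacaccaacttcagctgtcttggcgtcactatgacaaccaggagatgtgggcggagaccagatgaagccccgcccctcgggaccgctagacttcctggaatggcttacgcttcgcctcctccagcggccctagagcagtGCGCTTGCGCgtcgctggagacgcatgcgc
Ndufaf4: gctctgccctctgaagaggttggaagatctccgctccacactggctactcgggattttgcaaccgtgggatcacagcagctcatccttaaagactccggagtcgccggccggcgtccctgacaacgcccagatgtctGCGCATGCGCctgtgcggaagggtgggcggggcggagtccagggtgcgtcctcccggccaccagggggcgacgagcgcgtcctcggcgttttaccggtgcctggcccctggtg
Atp5sl: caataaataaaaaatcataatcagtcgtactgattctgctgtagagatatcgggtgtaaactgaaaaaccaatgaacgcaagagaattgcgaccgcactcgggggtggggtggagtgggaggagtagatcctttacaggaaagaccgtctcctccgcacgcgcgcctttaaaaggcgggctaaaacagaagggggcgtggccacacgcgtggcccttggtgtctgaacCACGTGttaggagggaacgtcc
Atp5b: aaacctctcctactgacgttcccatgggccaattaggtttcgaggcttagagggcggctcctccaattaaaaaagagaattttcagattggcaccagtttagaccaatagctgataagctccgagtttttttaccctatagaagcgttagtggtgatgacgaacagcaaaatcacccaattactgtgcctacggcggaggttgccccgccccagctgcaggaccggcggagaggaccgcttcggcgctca

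Such promoters were available for 87 of the 103 genes and were searched on both strands. NRF1, a factor known for binding promoters of respiratory genes, was searched as GCGCA, any base, and GCGC, and that motif was in 12 of 65 subunit promoters (18.5%), in 1 of 19 assembly factor promoters (5.26%) and in 8.99% of the 8556 promoters of genes in the RPKM table. The ETS motif CCGGAAG, which GABP and other ETS factors bind, was in 16.9% of the subunit promoters, 36.8% of the assembly factor promoters and 14.3% of all. The E-box CACGTG was in 9.23% of the subunit promoters, in 0 of the 19 assembly factor promoters and in 8.77% of all. A motif of the factor YY1 was in 0 of the 65 subunit promoters, in 1 assembly factor promoter and in 0.853% of all. None of the 4 motifs contains another, and a match is only a description of the letters.

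Libraries were similar in size. Reads in the genes of the authors' deposited table of calls, which is part of each library, summed to between 26237934 and 33219013, and a library had 0.941 to 1.14 times the average number of reads per RPKM. The hepatocyte transcript Alb had 30251 to 32181 RPKM in refed livers and 26029 to 33984 RPKM in fasted livers. Of the 5 hepatocyte markers, Cyp2e1 and Cps1 were lower in refed livers. Apoa1 did not pass, although it passed as lower with the centring and TMM scalings described below. Markers of striated muscle (6 listed) and of lymphocytes (5 listed) were not among the transcripts analysed here. Among smooth muscle and pericyte markers, 3 of 6 were measured, and their summed level was 11.9 to 24.7 RPKM in refed livers and 3.94 to 7.18 RPKM in fasted livers, with Acta2 and Tagln higher. Of 5 cholangiocyte markers, Krt19, Krt7 and Sox9 were higher. The list summed to 21.3 to 29.6 RPKM in refed and 17.9 to 27.0 RPKM in fasted livers. Krt7 was low, at a mean of 0.895 RPKM in refed and 0.366 RPKM in fasted livers. It did not pass with the centring or quantile scalings described below. The 5 Kupffer cell markers summed to 40.4 to 42.9 RPKM in refed livers and to 26.5 to 78.0 RPKM in fasted livers, with fasted 1 the highest. Of 6 stellate cell markers only Des was higher, though not under the 3 other scalings described below, and 0 of the 5 endothelial, 2 neutrophil, 2 erythroid and 1 brown adipocyte markers measured passed (limma), with 1 of them, Pecam1 of endothelium, at an unadjusted p under 0.05. The part of these cells in the results below was not tested, and in whole liver fewer cells of a type and less RNA per cell cannot be told apart.

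Levels per length differed widely by role (the plot of mean level by complex). Over the 6 libraries the 78 subunits had a median of 121 RPKM, from 1.03 RPKM for Ndufa4l2 to 602 RPKM for Atp5b, the catalytic beta subunit of ATP synthase. The 22 assembly factors had a median of 8.87 RPKM, from 1.47 RPKM for Ndufaf5 to 38.3 RPKM for Cox17. The median by complex was 91.1 RPKM for complex I, 147 RPKM for complex II, 152 RPKM for complex III, 144 RPKM for complex IV and 174 RPKM for ATP synthase. Within each complex the subunits covered a range: from Ndufb4 (4.56 RPKM) to Ndufb9 (259 RPKM) in complex I, from Sdhd (109 RPKM) to Sdha (173 RPKM) in complex II, from Uqcrb (58.2 RPKM) to Uqcrq (368 RPKM) in complex III, and from Atp5g2 (16.0 RPKM) to Atp5b in ATP synthase.

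**Figure D1:**
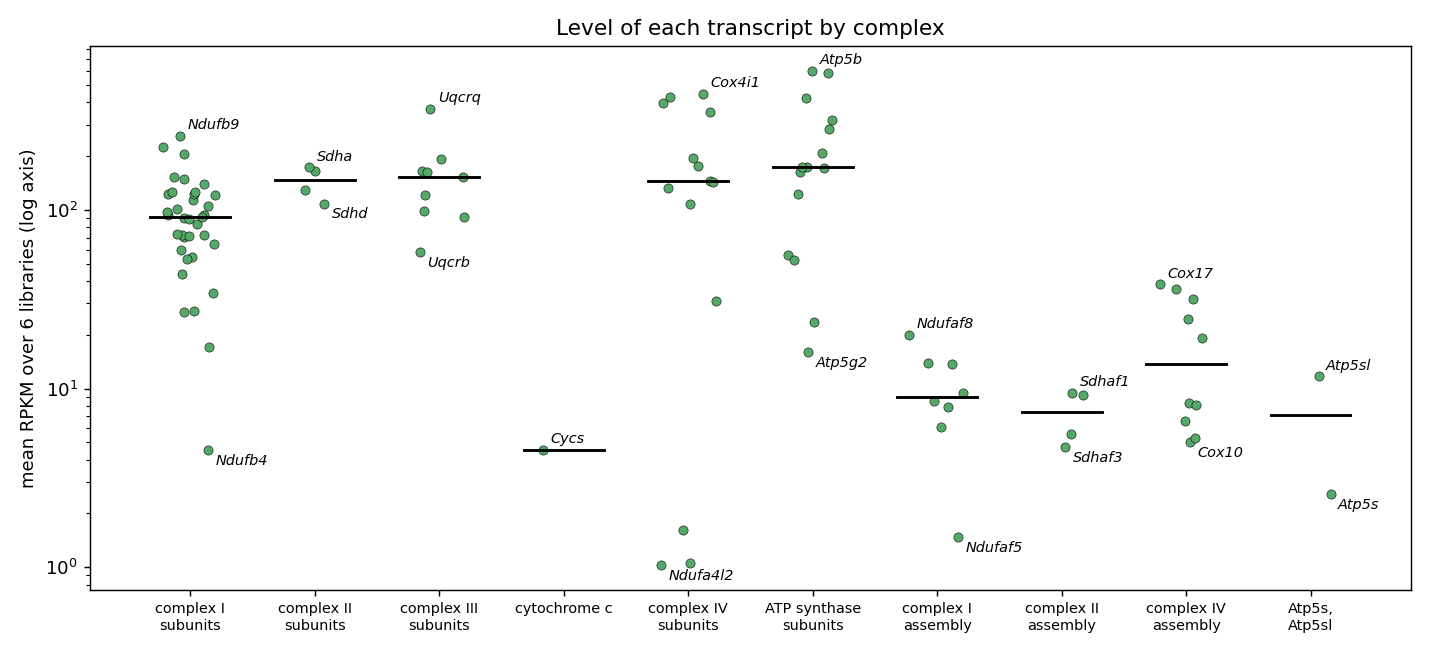
Mean RPKM over the 6 libraries, on a log axis, for each of the 103 genes, grouped by complex and by role; each point is 1 gene, the line is the group median, and the highest and lowest gene of each group are named. Subunits sat at a median of 121 RPKM and assembly factors at 8.87 RPKM.

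Some of the lowest levels belonged to genes with near-identical copies elsewhere in the genome. How many of their reads were assigned to the copies was not tested. A copy, here another gene with at least 95% identity over at least 200 bases of transcript, was found for 24 of the 103 genes. The 21 subunits with a copy had a median of 72.8 RPKM, and the 57 without one had a median of 126 RPKM. Atp5l, a membrane subunit of ATP synthase, had 9 such copies, 8 of them pseudogenes, Cycs had 4, and Ndufb4 had 1. Ndufs5-ps, by its name a pseudogene of Ndufs5, was itself measured, at a mean of 39.5 RPKM beside 72.8 RPKM for Ndufs5. Of the 26 genes that passed the test below, 5 had a copy (Atp5g1, Atp5g2, Ndufab1, Ndufs5 and Cox20), and 6 shared at least 100 exon bases with a neighbouring gene (Ndufa13, Ndufab1, Cox5a, Cox11, Cox16 and Cox20); values of these genes are uncertain for that reason.

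After refeeding, as many assembly factors as subunits had more transcript, out of far fewer genes (the plot of fold changes by complex). No gene counted as either kind passed as lower. Atp5sl, which was kept apart, did pass as lower (log2 fold change -0.81). Its human counterpart helps assemble complex I, so the 0 for assembly factors below rests on that grouping. Refed and fasted libraries were compared on log2(RPKM + 1) with limma over 10903 genes, and a gene passed at a Benjamini-Hochberg adjusted p under 0.05 over all of them. Of the 78 subunits, 12 were higher in refed livers (15.4%), 0 were lower and 66 did not pass. Over all genes tested, 26.4% were higher and 15.8% were lower, 42.2% in all, so the share of subunits that were higher lay under that of the table. Of the 22 assembly factors, 12 were higher (54.5%), 0 were lower and 10 did not pass. The difference between these 2 shares was not tested. At an unadjusted p under 0.05 the number lower was also 0 for subunits and 0 for assembly factors. All 103 genes passed the filter on low values.

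**Figure D2:**
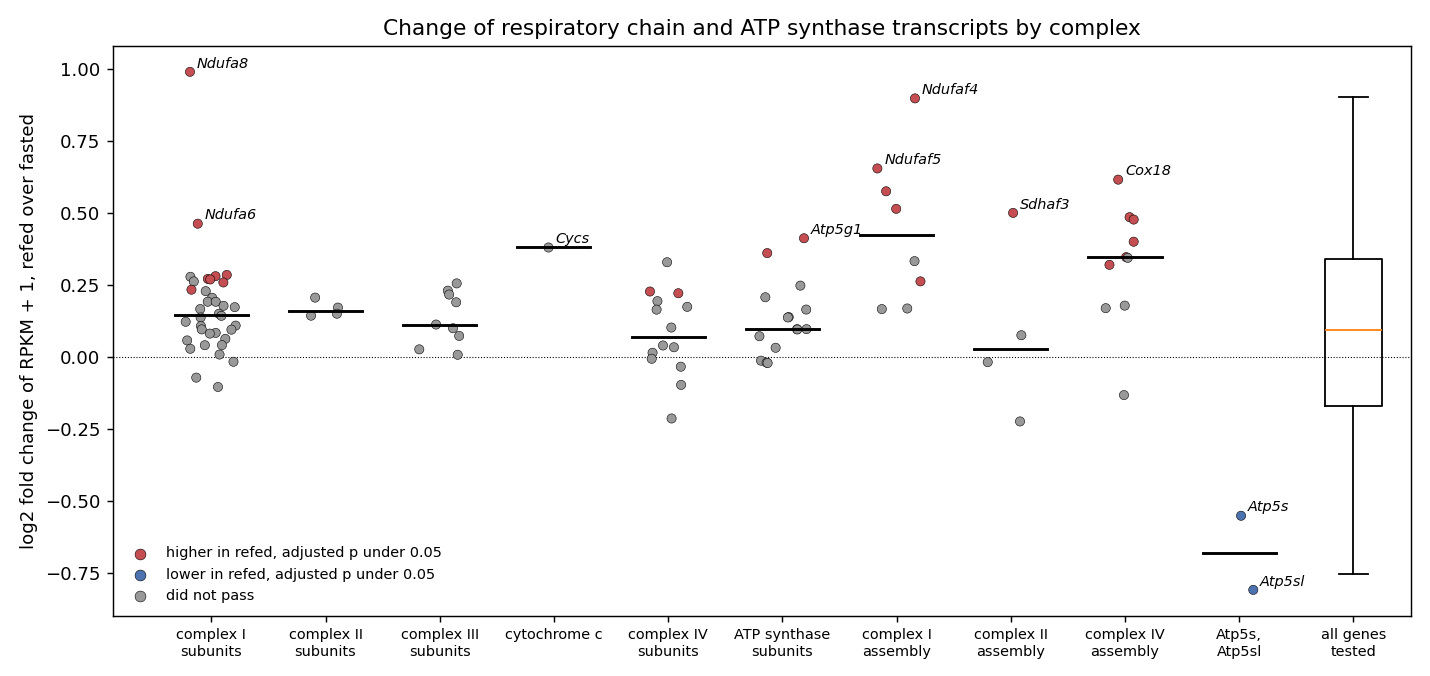
log2 fold change of RPKM + 1, refed over fasted, for each of the 103 genes; each point is 1 gene, coloured by whether it passed the test, the line is the median of the group, and the box at the right gives the quartiles of all 10903 genes with whiskers from the 5th to the 95th percentile. The medians of the assembly factors for complexes I and IV lie above those of the subunits of each complex. For complex II the assembly median (0.03) lies below that of the subunits (0.16). Ndufa8 stands above every other subunit, and Atp5s and Atp5sl lie at the bottom.

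The median log2 fold change of refed over fasted was 0.14 for subunits and 0.34 for assembly factors, beside 0.10 for all genes tested. The estimate was above 0 for 68 of the 78 subunits and for 19 of the 22 assembly factors. All 3 refed libraries lay above all 3 fasted libraries for 34 of the 78 subunits and 13 of the 22 assembly factors. Both are larger shares than the 34.7% of all genes for which this held, and the differences were not tested. All 3 refed libraries lay below for 1 of the 78 subunits (Ndufa7) and 1 of the 22 assembly factors (Cox7a2l), beside 20.7% of all genes.

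How many subunits passed depended on the scaling of the libraries and on single libraries. When each library was centred on its median, the median of all genes moved to 0.01, and 4 subunits and 9 assembly factors were higher, beside 20% of all genes. Quantile normalization and TMM factors computed on the RPKM values each gave 3 subunits and 9 assembly factors, beside 19.9% and 19.8% of all genes. Under each of these 3 scalings 0 subunits were lower and 1 assembly factor, Cox7a2l, was lower. The 12 subunits became 3 without fasted 3, 3 without refed 7, 5 without fasted 1, 5 without refed 5, 6 without refed 8 and 11 without fasted 4. The 12 assembly factors became 9 to 13 when any 1 library was left out.

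Subunit levels also differed between libraries of the same group (the plot of library deviations). Relative to each gene's own mean over the 6 libraries, the median subunit deviated on the log2 scale by 0.05, 0.11 and 0.04 in refed 5, 7 and 8, and by -0.15, -0.06 and 0.02 in fasted 1, 3 and 4. Refed 7 was the highest of the 6 libraries for 43 of the 78 subunits, and fasted 1 was the lowest for 59. Over all 10903 genes the median deviation was 0.046 in refed 7 and -0.075 in fasted 1; refed 7 was the highest library for 2402 of them, and fasted 1 was the lowest for 3105. Fasted 1 was also the library with the highest Kupffer cell marker sum, and the part of those cells was not tested. For assembly factors the same medians were 0.16, 0.20 and 0.18 in refed 5, 7 and 8 and -0.23, -0.16 and -0.07 in fasted 1, 3 and 4. Fasted 4 thus lay close to the refed libraries for subunits, while for assembly factors the refed and fasted medians were farther apart. The subunits together took 2.48%, 2.62% and 2.47% of summed RPKM in refed 5, 7 and 8 and 2.09%, 2.33% and 2.42% in fasted 1, 3 and 4.

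**Figure D3:**
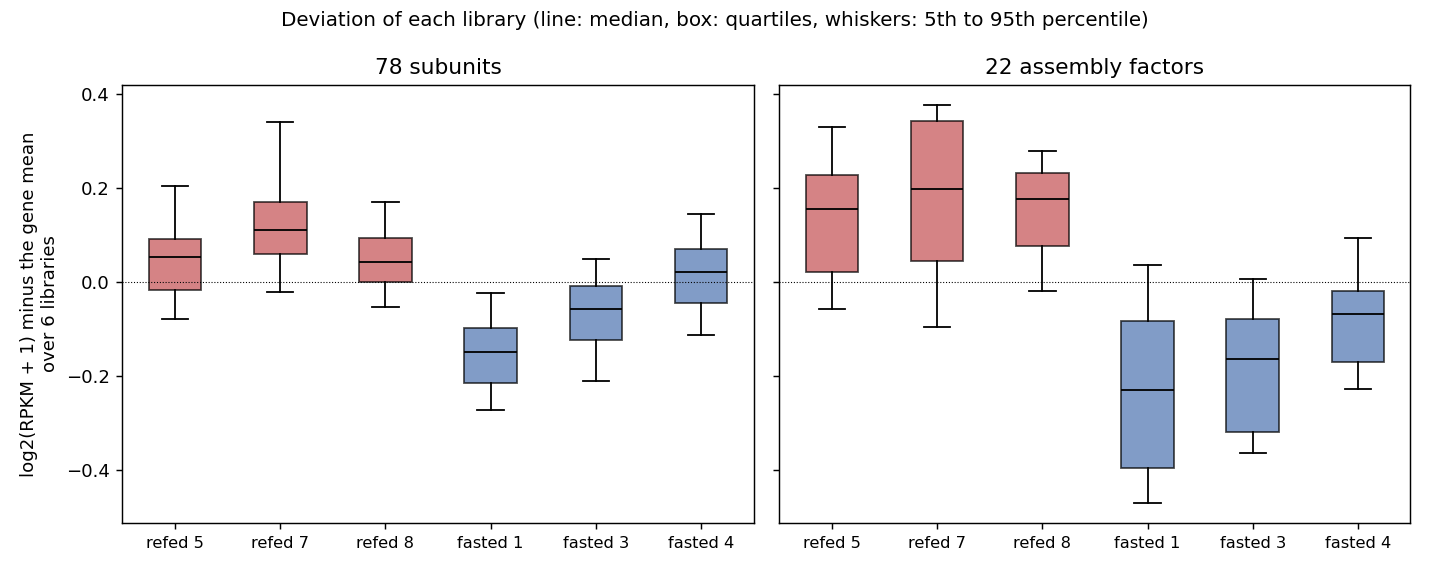
Deviation of log2(RPKM + 1) from the gene's mean over 6 libraries, by library, for the 78 subunits (left) and the 22 assembly factors (right); the line is the median, the box the quartiles and the whiskers the 5th and 95th percentiles. The median of fasted 1 is the lowest in both panels, and that of refed 7 is the highest.

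Among complex I subunits, 0 of 36 were lower, beside 15.8% of all genes tested, and 28 did not pass. The other 8 (22.2%) were higher in refed livers, beside 26.4% of all genes. They were led by Ndufa8, an accessory subunit on the intermembrane side of the membrane arm that carries paired cysteines and needs the oxidative import pathway. Ndufa8 had 188, 211 and 192 RPKM in refed 5, 7 and 8 and 96.1, 90.6 and 110 RPKM in fasted 1, 3 and 4. The lowest refed library thus lay well above the highest fasted one. The mean was 197 ± 12.3 RPKM in refed livers and 99.0 ± 10.1 RPKM in fasted livers (SD, n = 3 each), a ratio of 1.99. In the limma fit over all genes the log2 fold change was 0.99 ± 0.10 (SE), with a Benjamini-Hochberg adjusted p of 0.00024; 6.88% of the genes tested had a change at least as large in size.

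Ndufa8 also changed its place among the subunits of its own complex. It stood at 2.08, 2.19 and 2.07 times the median of the other 35 complex I subunits in refed 5, 7 and 8, and at 1.19, 1.09 and 1.29 times that median in fasted 1, 3 and 4. Counted from the highest of the 36, it ranked 3 to 4 in refed libraries and 11 to 16 in fasted libraries; these ratios and ranks were not tested. In the authors' deposited table the gene lies at chr2:35891846-35904926 on the minus strand (mm9), with 8468, 10471 and 7981 reads in refed 5, 7 and 8 and 4087, 3930 and 4527 reads in fasted 1, 3 and 4. The log2 fold change in that table is 0.89. Neither a near-identical copy nor an overlapping exon of at least 100 bases was found for it.

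**Figure D4:**
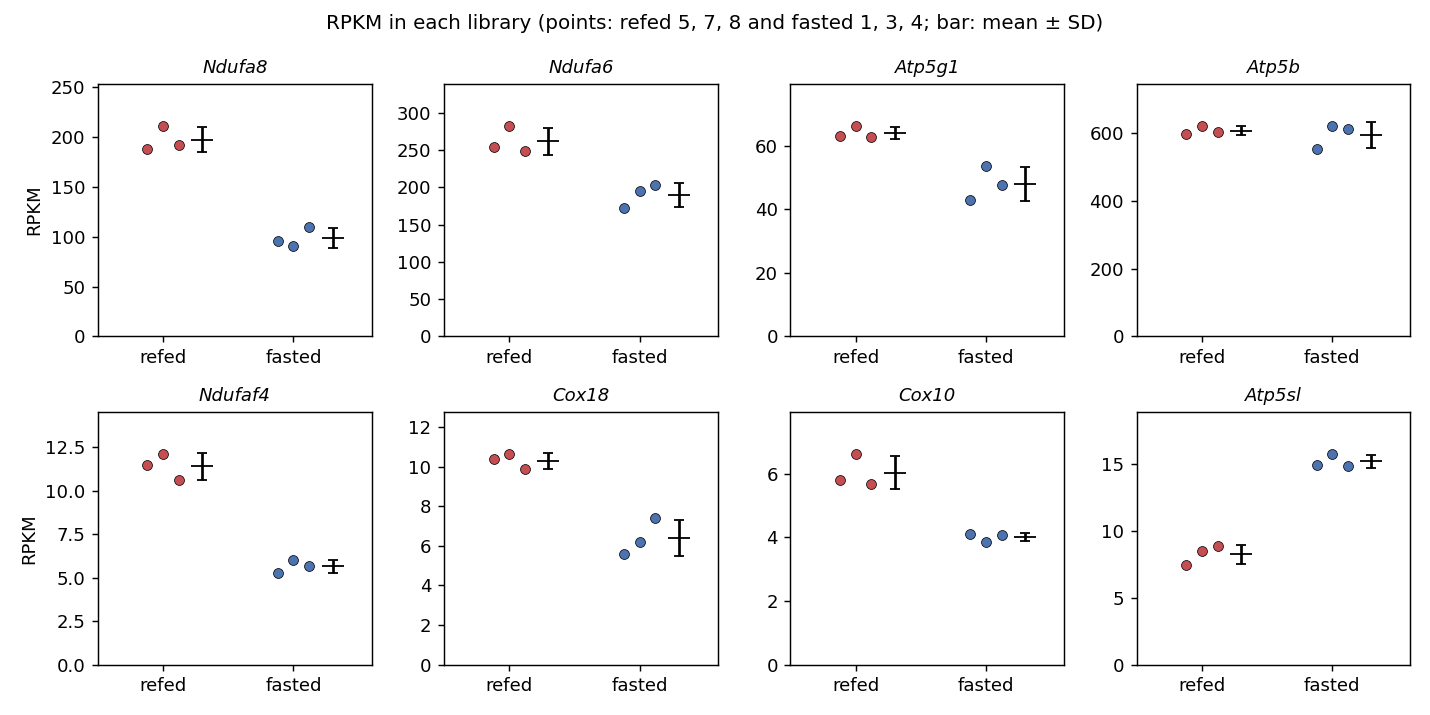
RPKM in each library for 8 genes, with refed 5, 7 and 8 in red on the left of each panel and fasted 1, 3 and 4 in blue on the right; the bar beside the points is the mean with its SD (n = 3), and each axis starts at 0. Refed points lie above all fasted points for Ndufa8, Ndufa6, Atp5g1, Ndufaf4, Cox18 and Cox10 and below them for Atp5sl, and the groups overlap for Atp5b.

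Ndufa6, an accessory subunit that binds the mitochondrial acyl carrier protein, was next. It had 254, 283 and 249 RPKM in refed 5, 7 and 8, against 172, 195 and 203 RPKM in fasted 1, 3 and 4, with no overlap. Its log2 fold change was 0.46 ± 0.10 (limma, Benjamini-Hochberg adjusted p = 0.0073). Ndufab1, the acyl carrier protein itself, had 31.0, 28.1 and 28.9 RPKM in refed livers and 22.1, 25.2 and 25.9 RPKM in fasted livers, with a log2 fold change of 0.26.

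The other complex I subunits that passed had small changes: Ndufc1 (log2 fold change 0.29), Ndufb10 (0.28), Ndufa13 (0.27), Ndufs8 (0.27) and Ndufs5 (0.23). Of these, Ndufs8 carries iron-sulfur clusters near the ubiquinone site, while the rest are accessory subunits. Ndufs8 had 73.1, 78.7 and 80.2 RPKM in refed 5, 7 and 8, above the 63.6, 64.2 and 63.9 RPKM in fasted 1, 3 and 4. It was the only one of the 7 core subunits measured that passed. None of these 5 genes, nor Ndufab1, passed under any of the 3 other scalings, whereas Ndufa8 and Ndufa6 passed in all 15 alternatives run.

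The other core subunits did not pass. Ndufs1, with its iron-sulfur clusters at the start of the electron path, had 44.7 to 48.6 RPKM in refed livers and 36.3 to 42.3 RPKM in fasted livers (adjusted p = 0.069, limma with Benjamini-Hochberg adjustment). Ndufv1, which binds NADH, had 89.8 to 93.1 RPKM in refed livers and 86.5 to 96.1 RPKM in fasted livers, and the groups overlapped. For the 28 complex I subunits that did not pass, the 95% intervals of the log2 fold change ran between -0.285 (lower bound, Ndufa7) and 0.563 (upper bound, Ndufb8), so a difference of up to those sizes remains possible for single genes. Summed over the complex, subunit RPKM was 3571, 3807 and 3637 in refed 5, 7 and 8 and 3082, 3196 and 3442 in fasted 1, 3 and 4.

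In complex II, which also belongs to the citric acid cycle, 0 of 4 subunits passed in either direction, beside 42.2% of all genes tested. None of these subunits reached an unadjusted p under 0.05. Sdha, the flavoprotein that oxidises succinate, had 177, 198 and 175 RPKM in refed 5, 7 and 8 and 143, 178 and 168 RPKM in fasted 1, 3 and 4, with overlap. Sdhb, which carries the iron-sulfur clusters, averaged 177 ± 19.9 RPKM in refed livers and 153 ± 3.47 RPKM in fasted livers (SD, n = 3 each). Its refed libraries were all above the fasted ones, yet its adjusted p was 0.13 (limma). The membrane anchors Sdhc and Sdhd had log2 fold changes of 0.14 and 0.15.

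In complex III, 0 of 9 subunits passed in either direction, beside 42.2% of all genes tested. At an unadjusted p under 0.05, 4 of the 9 were higher. The closest to the threshold was Cyc1, cytochrome c1, which hands electrons to cytochrome c: it had 169, 168 and 156 RPKM in refed livers against 133, 141 and 145 RPKM in fasted livers. Its groups did not overlap, with a log2 fold change of 0.23 and an adjusted p of 0.0503 (limma). It passed with a pseudocount of 0.1, with a minimum mean of 5 RPKM and with transcripts summed per gene, and not in the other alternatives, where its adjusted p reached 0.23. Uqcrc1, a core protein without a cofactor, had 183, 190 and 169 RPKM in refed livers and 137, 160 and 157 RPKM in fasted livers (adjusted p = 0.062, limma). Uqcrfs1, the Rieske iron-sulfur protein, had 97.0 to 104 RPKM in refed livers and 88.3 to 106 RPKM in fasted livers, with overlap.

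Cycs, the electron carrier between complexes III and IV, had 5.17, 5.55 and 5.03 RPKM in refed 5, 7 and 8 and 2.91, 3.93 and 4.71 RPKM in fasted 1, 3 and 4. The groups did not overlap. The log2 fold change was 0.38 ± 0.14 with an adjusted p of 0.056 (limma, Benjamini-Hochberg), and of the alternatives it passed only without fasted 4 (range of adjusted p 0.020 to 0.14). Its 4 near-identical copies make the level uncertain.

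In complex IV, 2 of 14 subunits were higher (14.3%), 0 were lower and 12 did not pass. Among all genes tested, 26.4% were higher and 15.8% were lower. Cox5a, which faces the matrix, had 191, 193 and 185 RPKM in refed livers against 156, 166 and 163 RPKM in fasted livers. Cox7a2, a small membrane subunit, had 154, 156 and 158 RPKM in refed livers against 132, 132 and 137 RPKM in fasted livers. Both sets of libraries were apart, with ratios of 1.17 each, and neither gene passed under the 3 other scalings. Cox4i1, the most abundant, did not pass: it had 431 to 461 RPKM in refed livers and 408 to 492 RPKM in fasted livers, with a log2 fold change of -0.01 and a 95% interval from -0.23 to 0.22. The median log2 fold change over the 14 subunits was 0.07, which became -0.01 with centring, -0.04 with TMM and 0.12 with quantile normalization.

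Where complex IV has isoforms of different tissues, liver held mainly the ubiquitous ones. Cox6b1 averaged 366 RPKM in refed livers and 340 RPKM in fasted livers, while Cox6b2, the testis form, had 0.664 to 1.30 RPKM in refed livers and 0.893 to 1.55 RPKM in fasted livers. Cox7a1, the heart and muscle form, had 1.03 to 2.46 RPKM in refed livers and 0.396 to 2.12 RPKM in fasted livers, beside Cox7a2 above. Ndufa4, a complex IV subunit despite its name, averaged 433 RPKM in refed livers and 429 RPKM in fasted livers, and its relative Ndufa4l2 had 0.665 to 1.23 RPKM in refed livers and 0.830 to 1.52 RPKM in fasted livers. Values of these 3 rare isoforms overlapped between groups, and none passed. Cox4i2, Cox6a2 and Cox8b, further tissue forms, were not found by symbol among the RPKM values. The smallest maximum over the 6 libraries among the transcripts present there was 1 RPKM.

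In ATP synthase, 2 of 15 subunits were higher (13.3%), 0 were lower and 13 did not pass. Among all genes tested, 26.4% were higher and 15.8% were lower. Both ATP synthase genes that passed encode the c subunit of the rotating membrane ring. Atp5g1, Atp5g2 and Atp5g3 encode the same mature c protein with different import presequences. Atp5g1 had 63.1, 66.4 and 63.0 RPKM in refed 5, 7 and 8, against 42.9, 53.6 and 47.8 RPKM in fasted 1, 3 and 4. Atp5g2 had 17.4, 20.3 and 16.6 RPKM in refed livers, against 13.3, 13.4 and 14.8 RPKM in fasted livers. Neither gene's groups overlapped, and the log2 fold changes were 0.41 ± 0.10 (adjusted p = 0.011, limma) and 0.36 ± 0.10 (adjusted p = 0.019, limma). Atp5g2 did not pass with quantile or TMM scaling, nor without fasted 3 or without refed 7, where its adjusted p was at most 0.059.

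Atp5g3, the main source of the c subunit transcript, had 623, 608 and 575 RPKM in refed livers and 531, 585 and 602 RPKM in fasted livers, and its groups overlapped (log2 fold change 0.07, adjusted p = 0.56, limma). Of the summed RPKM of the 3 genes, Atp5g1 made up 8.96% to 9.63% in refed livers and 7.20% to 8.22% in fasted livers. Atp5g3 made up 87.5% to 88.6% in refed livers and 89.7% to 90.6% in fasted livers. The difference in these shares was not tested.

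No subunit of the catalytic head of ATP synthase passed. Atp5b had 598, 623 and 606 RPKM in refed 5, 7 and 8 and 553, 622 and 612 RPKM in fasted 1, 3 and 4. Its log2 fold change was 0.03, with a 95% interval from -0.18 to 0.24. Atp5a1, the alpha subunit, averaged 438 ± 25.6 RPKM in refed livers and 409 ± 24.6 RPKM in fasted livers (SD, n = 3 each), and the groups overlapped. In all, 0 of 5 head subunits and 0 of 4 peripheral stalk subunits passed in either direction, and 1 stalk subunit, Atp5f1, was higher at an unadjusted p under 0.05. The median log2 fold change over the 15 subunits was 0.10, which became 0.01 with centring, -0.01 with TMM and 0.13 with quantile normalization.

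Of the 8 complex I assembly factors, 5 were higher (62.5%, beside 26.4% of all genes tested), 0 were lower and 3 did not pass. Atp5sl, described below, is not counted among the 8. Ndufaf4 and Ndufaf3 are known in human cells to act together early, on the arm that holds the ubiquinone site. Ndufaf4 had 11.5, 12.1 and 10.6 RPKM in refed 5, 7 and 8, against 5.28, 6.00 and 5.65 RPKM in fasted 1, 3 and 4. The refed level was 2.02 times the fasted one, with a log2 fold change of 0.90 ± 0.09 and an adjusted p of 0.00020 (limma, Benjamini-Hochberg). In the authors' deposited table, where it lies at chr4:24825230-24832148 on the plus strand (mm9), Ndufaf4 has 2537, 2979 and 2149 reads in refed libraries and 1106, 1293 and 1184 reads in fasted libraries. Ndufaf3 had 10.9, 12.2 and 10.6 RPKM in refed livers, against 7.08, 8.13 and 7.51 RPKM in fasted livers (log2 fold change 0.52). Neither gene's groups overlapped.

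Ndufaf5 and Ndufaf7 modify arginines of core subunits, and Ndufaf5 does so by hydroxylating Ndufs7. Ndufaf5 had 2.02, 2.12 and 1.92 RPKM in refed livers, against 0.749, 0.870 and 1.15 RPKM in fasted livers. The ratio of means was 2.19, while the log2 fold change was 0.66, since the added 1 RPKM shrinks changes at so low a level. Ndufaf7 had 7.84, 7.26 and 7.37 RPKM in refed livers, against 5.60, 3.53 and 5.17 RPKM in fasted livers (log2 fold change 0.58). Ndufs7 did not pass: it had 123 to 141 RPKM in refed livers and 105 to 133 RPKM in fasted livers.

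Ndufaf1, which builds the membrane arm, had 14.5, 16.1 and 15.3 RPKM in refed livers, against 11.5, 12.7 and 13.4 RPKM in fasted livers (log2 fold change 0.26). It passed in none of the 3 other scalings. Ndufaf8, known in human cells to stabilise Ndufaf5, had 19.8 to 24.8 RPKM in refed livers and 15.6 to 19.9 RPKM in fasted livers and did not pass (adjusted p = 0.051, limma), although it passed without fasted 1, without refed 5 and with a minimum mean of 5 RPKM. Ndufaf2 and Ndufaf6 each had a log2 fold change of 0.17 and did not pass.

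Of the 4 complex II assembly factors, 1 (25%), Sdhaf3, was higher, beside 26.4% of all genes tested. Sdhaf3, which helps the iron-sulfur subunit mature, had 5.73, 5.71 and 5.55 RPKM in refed livers, against 2.90, 4.55 and 3.82 RPKM in fasted livers. Its log2 fold change was 0.50 ± 0.13, and its adjusted p was 0.016 (limma) but 0.051 without refed 5. Sdhaf1, with a related role, had 8.29 to 8.93 RPKM in refed livers and 8.00 to 11.9 RPKM in fasted livers; it did not pass, except as lower without fasted 3 (log2 fold change -0.38, adjusted p = 0.020, limma). Sdhaf2, which attaches flavin to Sdha, and Sdhaf4, a chaperone of Sdha, had overlapping groups with log2 fold changes of 0.08 and -0.02.

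Of the 10 complex IV assembly genes, 6 were higher (60%), beside 26.4% of all genes tested, and 4 did not pass. Cox18, which moves the tail of the mitochondrially encoded Cox2 across the membrane, had 10.4, 10.6 and 9.86 RPKM in refed 5, 7 and 8, against 5.58, 6.20 and 7.41 RPKM in fasted 1, 3 and 4. Its log2 fold change was 0.62 ± 0.10 (adjusted p = 0.0027, limma), and the groups were apart. Cox20 and Cox16, which also act on Cox2, had log2 fold changes of 0.40 and 0.35. Cox20 had 40.3 to 42.4 RPKM in refed livers and 27.7 to 33.9 RPKM in fasted livers, and Cox16 had 8.91 to 9.38 RPKM in refed livers and 5.76 to 7.86 RPKM in fasted livers.

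Genes for haem and copper delivery were higher in part. Cox10, which makes haem O from haem B, had 5.81, 6.62 and 5.67 RPKM in refed livers, against 4.12, 3.86 and 4.06 RPKM in fasted livers (log2 fold change 0.49 ± 0.09, adjusted p = 0.0035, limma). Cox15, which turns haem O into haem A, had 6.04 to 7.79 RPKM in refed livers and 5.98 to 6.24 RPKM in fasted livers and did not pass. Cox11, which delivers copper to Cox1, had 6.09, 7.12 and 5.65 RPKM in refed livers, against 3.98, 4.12 and 4.56 RPKM in fasted livers (log2 fold change 0.48). The copper proteins Cox17 and Cox19 had log2 fold changes of 0.17 and 0.35 and did not pass.

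Cox14, which accompanies newly made Cox1, had 19.7 to 22.3 RPKM in refed livers and 15.4 to 18.3 RPKM in fasted livers (log2 fold change 0.32). Neither Cox14 nor Cox16 passed under the 3 other scalings. Cox7a2l, known for joining complexes III and IV, ran the other way, and whether it joins them in this mouse strain was not tested. It had 22.8, 23.9 and 23.8 RPKM in refed livers and 25.3, 25.1 and 27.1 RPKM in fasted livers. Its groups did not overlap, but its adjusted p was 0.19 (limma), and 0.020 was the lowest over the alternatives.

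Atp5sl and Atp5s were the 2 genes that were lower after refeeding. Atp5sl, whose human counterpart DMAC2 helps assemble the far membrane arm of complex I, had 7.47, 8.45 and 8.84 RPKM in refed 5, 7 and 8, against 14.9, 15.7 and 14.9 RPKM in fasted 1, 3 and 4. The fasted level was 1.84 times the refed one, and the log2 fold change was -0.81 ± 0.09 (adjusted p = 0.00031, limma). It lies at chr7:26404433-26410570 on the plus strand (mm9) in the authors' deposited table. Atp5s, known in cattle as a coupling factor of ATP synthase, had 2.01, 1.68 and 1.98 RPKM in refed livers, against 3.45, 2.69 and 3.58 RPKM in fasted livers (log2 fold change -0.55). Neither gene's groups overlapped, and both genes passed in every alternative run.

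The authors' deposited table of calls, made from read counts at a false discovery rate under 0.05, lists 8 of the 103 genes: Ndufa8, Ndufa6, Ndufaf3, Ndufaf4, Cox10, Cox18, Atp5s and Atp5sl. All 8 had the same sign there and passed here, out of the 26 that passed here. That table lists 36.5% of all genes tested. It lists 2 of the 78 subunits and 4 of the 22 assembly factors, both smaller shares than that of all genes. By those calls, assembly factors thus did not stand above all genes, unlike in the limma fit. Atp5g1, Ndufaf5, Ndufaf7, Cox11 and Cox20, which passed in every alternative run on them here, were not found in it. The 2 sources use the same libraries and are not independent.

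Other genes of the same pathway that the symbol rule does not cover were described by lists of related function, 82 genes measured of 85 listed. Of these, 24 were higher, 12 were lower and 46 did not pass, beside 26.4% of all genes tested that were higher and 15.8% that were lower; the number higher became 14 without refed 5. Among 36 further genes listed for assembly and control, 10 were higher, 3 were lower and 23 did not pass. Their share higher was near the 26.4% of all genes tested, unlike that of the 22 assembly factors found by symbol (54.5%). This difference was not tested. For complex I, Timmdc1 (log2 fold change 0.56), Dmac1 (0.50), Acad9 (0.32) and Ecsit (0.30) were higher. Like Ndufaf1, they act in building the membrane arm. For complex IV, Higd1a (0.73), Coa3 (0.52), a partner of Cox14, and Coa7 (0.25) were higher, and Coa5 (-0.33) was lower. For complex III, Bcs1l (0.52), which inserts the Rieske protein, Lyrm7 (0.46), its chaperone, and Uqcc2 (0.45) were higher, while Uqcc3 (-0.39) and Ttc19 (-0.29) were lower. Ecsit and Coa7 did not pass under the 3 other scalings. Of 5 genes listed under ATP synthase assembly and control, 0 passed (limma), with 2 at an unadjusted p under 0.05. The 5 include Usmg5, currently named Atp5md. The rule did not find it or Atp5mpl by their deposited symbols, so neither is counted among the 15 ATP synthase subunits.

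Genes of other routes into ubiquinone moved in both directions (the plot of related genes). Of 8 measured, 2 were higher and 2 were lower, beside 26.4% and 15.8% of all genes tested. Etfdh, which feeds electrons of fatty acid oxidation to ubiquinone, had 103, 84.9 and 94.7 RPKM in refed 5, 7 and 8, against 176, 192 and 207 RPKM in fasted 1, 3 and 4 (log2 fold change -1.02 ± 0.10). Gpd2, which feeds electrons of cytosolic NADH through the glycerophosphate shuttle, had 14.98, 15.6 and 12.9 RPKM in refed livers, against 6.47, 6.88 and 7.36 RPKM in fasted livers (log2 fold change 0.97 ± 0.10). The libraries of both genes were apart, in opposite directions. Dhodh, of pyrimidine synthesis, was higher (0.39), and Etfb, a partner of Etfdh, was lower (-0.29), while 4 of the 8 donors did not pass. Of those 4, Sqor, which oxidises sulfide, had a log2 fold change of -0.16 and passed as lower under each of the 3 other scalings.

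Genes of ubiquinone synthesis also split, with 6 higher and 2 lower of 13, beside 26.4% and 15.8% of all genes tested. Coq8a, a kinase-like regulator of the pathway, had 98.8, 165 and 92.1 RPKM in refed livers, against 53.5, 61.1 and 54.7 RPKM in fasted livers, with refed 7 far above the others. Pdss1 (log2 fold change 0.50), Coq7 (0.44), Coq5 (0.34), Coq2 (0.30) and Coq6 (0.25) were higher, the last 3 not under other scalings. Coq10b (-0.54) and Coq3 (-0.28) were lower. Coq10a (-0.30) did not pass, although it passed as lower under each of the 3 other scalings. Of 4 carriers of ADP, ATP and phosphate or uncoupling proteins measured, 0 passed, and Slc25a5 was closest (log2 fold change 0.24, adjusted p = 0.053, limma), with 1 of the 4 at an unadjusted p under 0.05.

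**Figure D5:**
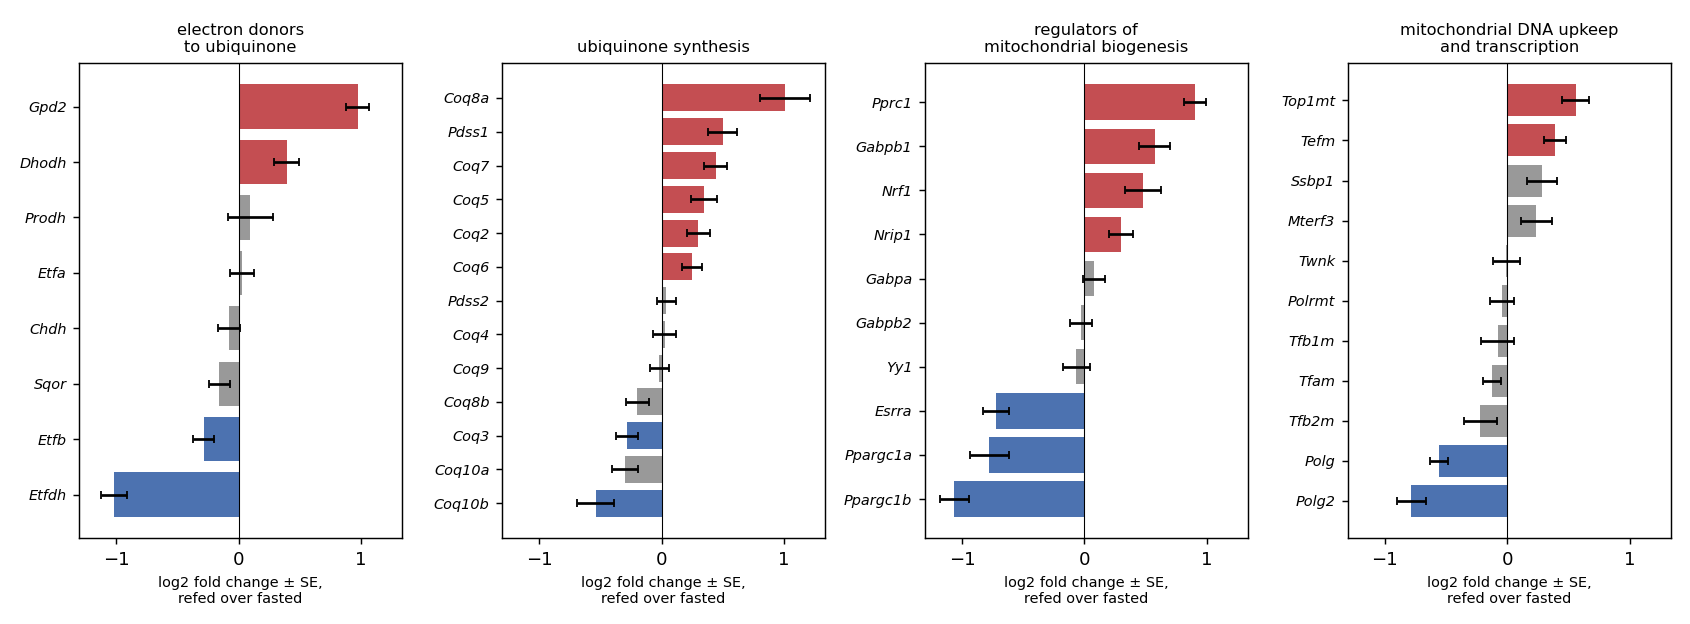
log2 fold change of RPKM + 1, refed over fasted, with its standard error, for 4 lists of related genes; red bars passed the test as higher in refed livers, blue bars passed as lower, and grey bars did not pass. Gpd2, Coq8a and Pprc1 reach about 1 and Etfdh and Ppargc1b about -1.

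Regulators of mitochondrial gene expression moved in both directions, with 4 higher and 3 lower of 10. All genes tested did so too, with 26.4% higher and 15.8% lower. The coactivators Ppargc1a and Ppargc1b, known to raise genes of oxidative metabolism, were lower: Ppargc1a had 1.09, 0.717 and 0.562 RPKM in refed livers, against 2.68, 1.84 and 1.69 RPKM in fasted livers. Ppargc1b had 0.934, 1.56 and 1.13 RPKM in refed livers, against 3.74, 3.40 and 3.58 RPKM in fasted livers. Their partner Esrra had a log2 fold change of -0.72. A related coactivator, Pprc1, had 7.06, 7.21 and 8.07 RPKM in refed livers, against 3.29, 3.42 and 3.86 RPKM in fasted livers (log2 fold change 0.90). Gabpb1 (0.57), Nrf1 (0.48) and Nrip1 (0.30) were higher as well, although Nrf1 and Nrip1 did not pass under the 3 other scalings.

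For mitochondrial DNA upkeep and transcription, 2 of 11 genes were higher and 2 were lower, beside 26.4% and 15.8% of all genes tested. The polymerase genes Polg and Polg2 were lower, with log2 fold changes of -0.56 and -0.78. The topoisomerase Top1mt (0.56) and the transcription elongation factor Tefm (0.39) were higher. Tfam, which packages the DNA and starts transcription, had 8.20 to 8.67 RPKM in refed livers and 8.98 to 9.50 RPKM in fasted livers, and it did not pass (log2 fold change -0.12, adjusted p = 0.21, limma), although it passed as lower under each of the 3 other scalings.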

How the data were processed

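Libraries of liver messenger RNA, 3 refed and 3 fasted, were grouped by sample title. The deposited RPKM values were computed by the authors, 1 row per RefSeq transcript, with a smallest maximum of 1 RPKM over the libraries among 14659 transcripts; the library total behind the scaling is not given in the sources. The authors' ratio of group means and unadjusted p-value, also given as −log10, stand in the same deposited table and were not used. A second deposited table holds raw read counts, log2 fold changes and p-values of the genes the authors called, per the file headers; its counts were chosen on the outcome, so no count test was run on them. The submitters' processing notes name STAR 2.6.0c, FastQC, DESeq2 and mm9 with no further detail. Strand use in counting is not given in the sources, so overlapping genes are uncertain.

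Transcripts were named by accession, 14390 of them, and 54 had no name. Values were taken as log2(RPKM + 1), which understates changes of low genes, where the mean was 0.5 RPKM or more. Refed and fasted were compared by limma 3.58.1 in R 4.3.3 (moderated, trended variances, two-sided, Benjamini-Hochberg over all genes tested, no covariate), tested on simulated data first. Ratios without a log are of group mean RPKM. Chi-square per degree of freedom between replicates was 59.1 to 240; this covers counting error only, so no library was a repeat deposit of another within that error, while a shared mouse is not addressed. Full depth is unknown, so no counting intervals are given. Copies were sought with blastn 2.17.0+ in GENCODE transcripts. Named with values were called genes (up to 12 by size in each direction), core subunits, isoform families, assembly factors that passed, the highest and lowest gene of each complex and up to 6 called genes per related list; other genes named were chosen after their values were seen. The values of 1 core subunit are not reported here. The genes and lists were chosen with earlier results of these data known. Alternatives changed the pseudocount, filter, scaling (edgeR 4.0.16 for TMM), transcript choice and variance trend, or left out 1 library.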

Additional observations from a re-analysis of the deposited data

How the results depend on the processing

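The number of subunits that were higher, 12, was 4 with libraries centred on their medians, 3 with quantile normalization and 3 with TMM factors, and 3 to 11 when 1 library was left out. For complex I it was 8, with 2, 2 and 2 under these scalings and 2 to 8 without 1 library. For complex IV it was 2, with 0, 0 and 0 under these scalings and 0 to 1 without 1 library. For ATP synthase it was 2, with 1 by quantile normalization, 1 by TMM and 1 to 2 without 1 library. For complex III it was 0, and 1 with a pseudocount of 0.1, with a minimum mean of 5 RPKM and with summed transcripts. Assembly factors that were lower, Atp5sl apart, numbered 0, and 1 under each of the 3 scalings and 0 to 1 without 1 library. From 9 to 13 were higher without 1 library. Genes of the related lists that were higher numbered 24, and 14 without refed 5 to 26 without fasted 4. Over all genes, 2878 were higher and 1722 were lower, against 2186 and 2267 with centring, 2169 and 2292 with quantile normalization and 2159 and 2333 with TMM. The cause of these differences was not tested. Of the 26 genes that passed, 13 passed in all alternatives that could be run on them: Ndufa8, Ndufa6, Atp5g1, Ndufaf3, Ndufaf4, Ndufaf5, Ndufaf7, Cox10, Cox11, Cox18, Cox20, Atp5s and Atp5sl. The minimum of 5 RPKM removed Ndufaf5 and Atp5s. Another 7 genes passed in at least 1 alternative only, and 0 of those that passed reversed. No paired analysis was possible because the groups share no replicate numbers.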
